A study of Homo sapiens with 16 samples.

Results

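GRHL3, NECTIN4, WDR63, INPP5D, TSPAN11 and FLG-AS1 were 6 genes with some of the largest rises under Nutlin-3a that are not among the textbook targets of p53. They were selected on their deposited log2 fold changes with Nutlin-3a and found by gene symbol in the authors' deposited tables, and all 6 were in each of the 4 tables. Those tables held 23396 genes in all, of which 19344 were in every table. Because very large fold changes with Nutlin-3a chose the members, those fold changes are described here and not tested.

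The study used U2OS, a human osteosarcoma cell line with wild-type p53. Cultures were transfected with siControl, the control siRNA, or with siRFX7, which lowers the mRNA of RFX7, a transcription factor of the winged-helix RFX family. The cells received 10 µM Nutlin-3a or the solvent DMSO for 24 h. The 4 groups were siControl with DMSO, siControl with Nutlin-3a, siRFX7 with DMSO and siRFX7 with Nutlin-3a, with 4 poly(A) RNA-seq libraries each, 16 in all. All groups were siRNA-transfected cultures of 1 line, so no group was untransfected. The labels do not say whether the libraries of a group came from separate cultures, and the p-values then measure only the spread between these libraries.

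Nutlin-3a occupies the pocket of MDM2 that binds p53, which frees p53 from degradation and lets it act on its target genes. The classical targets serve cell cycle arrest, apoptosis, DNA repair and feedback, such as the CDK inhibitor CDKN1A and MDM2 itself. The genes described here have other known roles. GRHL3 is a grainyhead transcription factor of the epidermal barrier, and NECTIN4 is a cell adhesion molecule of epithelia. WDR63, now named DNAI3, is a dynein intermediate chain of motile cilia that has also been described as an inhibitor of the Arp2/3 actin nucleator. INPP5D, or SHIP1, removes the 5-phosphate from PIP3 and is best known from blood cells. TSPAN11 is a member of the tetraspanin membrane proteins. FLG-AS1 is a long noncoding RNA transcribed across the filaggrin gene from the opposite strand.

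The files hold 4 comparisons of 2 groups each and no value of a single library, so the spread between libraries enters only through the deposited standard errors (SE). The mean level of a gene in each group was solved from the deposited base mean and fold change, and the tables, which the authors normalised separately, were put on 1 scale. Each group is in 2 tables, and the levels of the 6 genes from both differed by at most 3.38%, for GRHL3 in siRFX7 with DMSO. Summed over genes, base means came to 27946376 to 35311111 normalised counts per table. The authors' deposited tables put RFX7 at 18.6% of its siControl level under DMSO and at 19.4% under Nutlin-3a. CDKN1A, the check of p53 activity, had log2 fold changes with Nutlin-3a of 3.24 ± 0.04 (SE) in siControl and 2.98 ± 0.04 in siRFX7, by the authors' deposited tables. Of 10 osteoblast lineage markers, 7 were in the siControl table. RUNX2, COL1A1, SPARC and ALPL had base means of 371 to 39039 in the authors' deposited table, and SP7, IBSP and TWIST1 had no row. With Nutlin-3a, 3 of the 7 passed the test as higher and none as lower, and their median was 0.02 in the authors' deposited table. Over all genes of that comparison, 18.3% were higher and 19.6% lower. In bulk RNA, fewer cells of a kind and less RNA per cell cannot be told apart.

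In genomic position, 4 of the 6 lie on chromosome 1, which carries 9.64% of the genes in the tables. All positions are those of GENCODE 29 on GRCh38, the assembly that the submitters' processing notes name as hg38. GRHL3 (ENSG00000158055) spans 24319322 to 24364482 on the plus strand of chromosome 1. WDR63 (ENSG00000162643) spans 84999147 to 85133138 on its plus strand. FLG-AS1 (ENSG00000237975) spans 152168125 to 152445456 on its plus strand, within the epidermal differentiation complex, and NECTIN4 (ENSG00000143217) spans 161070995 to 161089599 on its minus strand. INPP5D (ENSG00000168918) lies on chromosome 2, from 233059967 to 233207903 on the plus strand. TSPAN11 (ENSG00000110900) lies on chromosome 12, from 30926428 to 30996599 on the plus strand. These members share no target gene or transcript, and each has its own locus.

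The RefSeq promoter table (GRCh38.p14) gave 9 windows for the 6 genes, each from 250 bases before to 50 bases after an annotated start. They were searched on both strands for the p53 consensus decamer and for GTTGCC or GGCAAC, the core of the X-box that RFX factors bind. The decamer was in 1 of the 9 windows, the second start of GRHL3, and is in 6.63% of all 35116 windows. The X-box core was in the windows of WDR63 and INPP5D, with 2 matches in each, and was absent as letters from the other 7 windows. Among all windows 12.2% hold at least 1 such core and 0.968% hold at least 2. The windows with a match are shown because they are the ones in which either sequence was found, with the matches in capitals and 5′ to 3′ on the gene's strand.
GRHL3, second start, chr1:24322790-24323089, plus strand: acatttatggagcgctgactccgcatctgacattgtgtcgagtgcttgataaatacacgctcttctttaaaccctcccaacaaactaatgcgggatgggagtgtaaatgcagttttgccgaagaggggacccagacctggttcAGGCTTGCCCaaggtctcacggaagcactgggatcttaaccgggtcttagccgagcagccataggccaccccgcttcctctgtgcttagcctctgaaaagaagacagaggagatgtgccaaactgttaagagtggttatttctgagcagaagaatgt
WDR63, chr1:85062077-85062376, plus strand: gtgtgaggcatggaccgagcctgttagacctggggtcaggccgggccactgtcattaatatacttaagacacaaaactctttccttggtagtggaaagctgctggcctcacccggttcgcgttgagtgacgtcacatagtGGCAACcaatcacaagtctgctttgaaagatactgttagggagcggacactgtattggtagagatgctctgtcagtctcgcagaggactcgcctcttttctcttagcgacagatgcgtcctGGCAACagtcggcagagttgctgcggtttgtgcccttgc
INPP5D, chr2:233060092-233060391, plus strand: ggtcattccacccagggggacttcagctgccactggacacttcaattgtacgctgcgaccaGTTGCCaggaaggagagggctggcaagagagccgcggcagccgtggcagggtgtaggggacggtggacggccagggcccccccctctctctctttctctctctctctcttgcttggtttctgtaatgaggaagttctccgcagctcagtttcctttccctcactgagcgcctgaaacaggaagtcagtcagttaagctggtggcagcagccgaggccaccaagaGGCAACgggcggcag
In GRHL3 the capitals mark the decamer AGGCTTGCCC, whose first base is base 144 of the window. In WDR63 they mark GGCAAC at bases 141 and 262, and in INPP5D GTTGCC at base 62 and GGCAAC at base 286. The RefSeq start of WDR63 lies inside the longer GENCODE 29 span given above. A match is a description of letters, and no binding was measured. The GC content of the 9 windows ran from 30.0% in the second window of FLG-AS1 to 78.3% in the first window of TSPAN11, around a median of 58.7% for all windows.

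Under DMSO the 6 genes were at low levels in siControl cells. Under Nutlin-3a they reached the middle or the upper part of the range of all genes, in normalised counts not divided by transcript length. GRHL3 had 5.44 normalised counts in siControl with DMSO and 210.0 with Nutlin-3a, and in siRFX7 cells 12.9 and 238. Its DMSO level in siControl was the lowest of the 6, also per kb of exon. NECTIN4 had 19.2 normalised counts with DMSO and 486 with Nutlin-3a in siControl, and 15.98 and 400.2 in siRFX7. WDR63 had 17.97 and 302 in siControl, and 16.7 and 278 in siRFX7. For both genes siRFX7 left the order of the treatments as it was, with slightly lower levels than siControl in each.

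INPP5D had 70.2 normalised counts with DMSO and 1038 with Nutlin-3a in siControl, and 52.4 and 883 in siRFX7. TSPAN11 had 42.0 and 502 in siControl, and 31.2 and 366 in siRFX7. FLG-AS1 was the highest of the 6 in every group, also per kb, at 187 and 1348 in siControl and 141 and 1441 in siRFX7. It was also 1 of the 2 genes, with GRHL3, whose level under Nutlin-3a was higher in siRFX7 than in siControl. In every member the lower Nutlin-3a level lay above the higher DMSO level. The percentile of the members among all genes of the siControl table ran from 12.2 to 48.4 with DMSO and from 49.0 to 75.2 with Nutlin-3a. These percentiles take no account of transcript length, so they place the members among all genes only roughly.

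**Figure D1:**
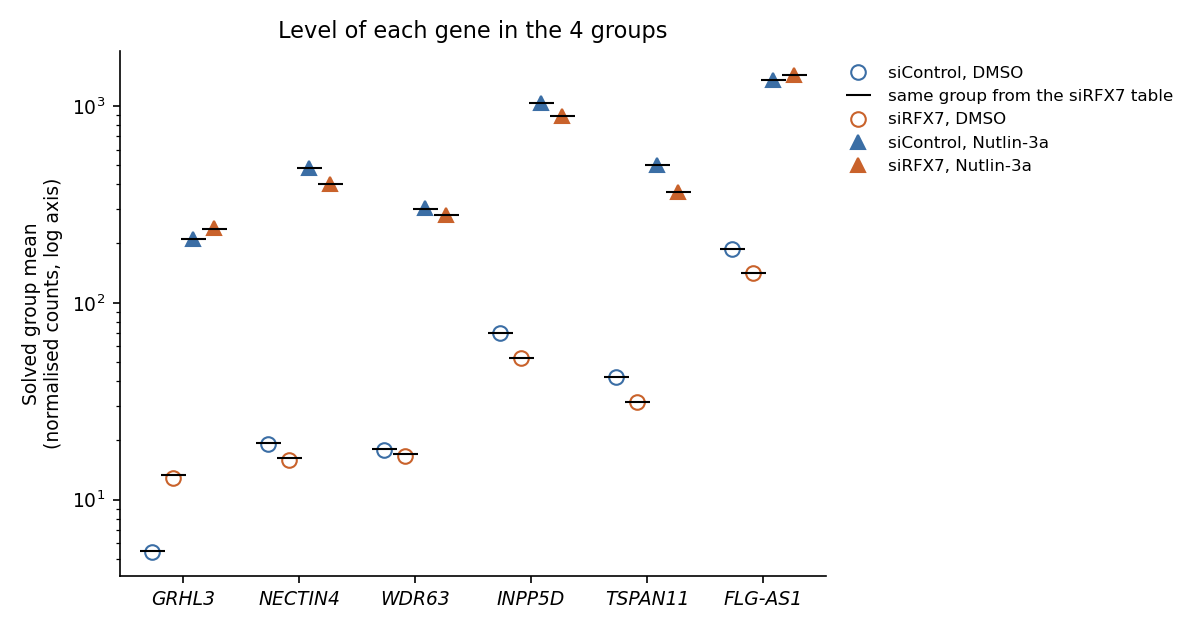
Solved mean level of each gene in normalised counts on a log axis, in siControl (blue) and siRFX7 (orange) with DMSO (open circles) and Nutlin-3a (triangles). Black dashes give the same group from the siRFX7 table; they fall on the symbols, and in each gene both triangles lie above both circles, for GRHL3 at 210.0 and 238 against 5.44 and 12.9.

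Levels can be compared between genes only per length of transcript. Per kb of exon in GENCODE 29, the order in siControl with DMSO was GRHL3 (1.38 normalised counts per kb), WDR63 (4.58), NECTIN4 (5.47), TSPAN11 (5.91), INPP5D (8.09) and FLG-AS1 (24.3). With Nutlin-3a in siControl the order of the levels per kb was GRHL3 (53.3), TSPAN11 (70.5), WDR63 (76.9), INPP5D (119.5), NECTIN4 (139) and FLG-AS1 (175). Neighbours such as TSPAN11 and WDR63 under Nutlin-3a, or NECTIN4 and TSPAN11 under DMSO, were apart by about as much as the spread between libraries that the deposited SEs imply (5.82% to 9.20% in that comparison). Under DMSO, counting error comes on top, and the comparison of siRFX7 with siControl under DMSO implied a larger spread, 8.79% to 44.5%. No order is read among WDR63, NECTIN4 and TSPAN11 under DMSO. CDKN1A had 1347 and MDM2 355 normalised counts per kb in siControl with DMSO, far above all 6.

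The response to Nutlin-3a was given by 2 comparisons that the choice of the members used. In siControl, the authors' deposited table gave GRHL3 a log2 fold change of 5.27 ± 0.33 (SE), a 38.6-fold rise with a 95% interval of 24.8 to 60.3. NECTIN4 followed in the authors' deposited table with 4.66 ± 0.18, or 25.4-fold (19.8 to 32.5), and WDR63 with 4.07 ± 0.20, or 16.8-fold (12.9 to 21.9). The same authors' deposited table gave INPP5D 3.89 ± 0.11, or 14.8-fold (12.7 to 17.1), and TSPAN11 3.58 ± 0.14, or 11.9-fold (9.90 to 14.4). FLG-AS1 had the smallest of the 6 in the authors' deposited table, 2.85 ± 0.08, or 7.22-fold (6.46 to 8.07). All 6 had an adjusted p under 0.05 in the authors' deposited table, in which 37.9% of genes were called, 18.3% higher and 19.6% lower, and nothing is read from that count.

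In siRFX7 cells the authors' deposited table gave GRHL3 a log2 fold change of 4.205 ± 0.27 (SE), an 18.4-fold rise (95% interval 12.8 to 26.5). NECTIN4 stood at 4.65 ± 0.23, or 25.04-fold (18.4 to 34.1), in that authors' deposited table. INPP5D and WDR63 had 4.08 ± 0.14 and 4.06 ± 0.24 in the authors' deposited table, or 16.9-fold (14.04 to 20.3) and 16.7-fold (12.1 to 23.0). TSPAN11 had 3.56 ± 0.18, or 11.8-fold (9.22 to 15.0), and FLG-AS1 3.35 ± 0.10, or 10.2-fold (8.87 to 11.7), in the authors' deposited table. Again all 6 were called, against 39.1% of genes called by the authors' deposited table (18.7% up and 20.3% down).

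**Figure D2:**
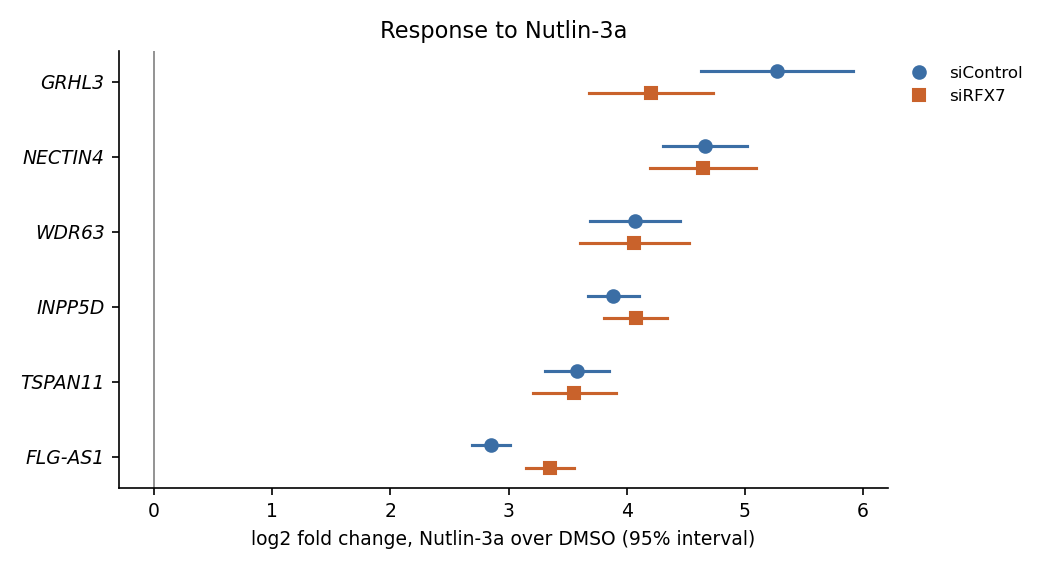
log2 fold change with Nutlin-3a over DMSO for each gene in siControl (blue circles) and siRFX7 (orange squares), with 95% intervals from the deposited SEs. GRHL3 stands highest in siControl and NECTIN4 in siRFX7. GRHL3 moves from 5.27 to 4.205 and FLG-AS1 from 2.85 to 3.35.

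Within the 13525 genes whose base mean was 100 or more in the siControl table, GRHL3 ranked 3 by log2 fold change, NECTIN4 5, WDR63 7, INPP5D 8, TSPAN11 13 and FLG-AS1 24. The authors' deposited table also held genes of that size that are not members. ZSCAN4 at 6.46 and H3.Y at 5.45 stood above GRHL3, and TFEC at 3.85, GDF15 at 3.83 and SLC52A1 at 3.66 stood between INPP5D and TSPAN11 in the authors' deposited table. In siRFX7, NECTIN4, INPP5D, WDR63, TSPAN11 and FLG-AS1 took ranks 1 to 5 of 12867 genes, and the next gene with a symbol was CSMD3 at 3.27 in the authors' deposited table. GRHL3 had a base mean of 95.5 there, just under the minimum for this ranking. Without a minimum, where genes with a few counts have the highest fold changes, the members ranked between 16 and 177 in siControl and between 14 and 54 in siRFX7.

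These folds went with low starting levels. The members were chosen for very large folds, so higher folds than those of the classical targets restate that choice. Low starting levels may in part do the same, which was not tested. Per kb of exon, the members had a median DMSO level of 5.69 normalised counts in siControl (1.38 to 24.3), where the 29 of 30 listed classical p53 targets with a row had 428 (7.19 to 1410.2). Their log2 fold changes had a median of 3.98, against 1.47 for the classical targets, by the authors' deposited table. In normalised counts gained per kb the order was the other way round, with a median of 91.9 for the members and 685 for the classical targets. GRHL3, NECTIN4, WDR63 and INPP5D each had a higher log2 fold change than all 29 classical targets in the authors' deposited table, and TSPAN11 and FLG-AS1 than 28 and 25 of them. Of the 29, 1 gained fewer counts per kb than at least 1 member: GDF15, a stress cytokine, gained 94.9 per kb, less than NECTIN4 (133), INPP5D (111) and FLG-AS1 (151) and more than the other 3. All 29 classical targets were called higher in both Nutlin-3a comparisons, against 18.3% and 18.7% of all genes. A DMSO level at or below that of FLG-AS1, the highest of the members, was shared by 48.4% of the genes in the siControl table, and 177 genes had a log2 fold change at least as large as its 2.85 in the authors' deposited table.

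**Figure D3:**
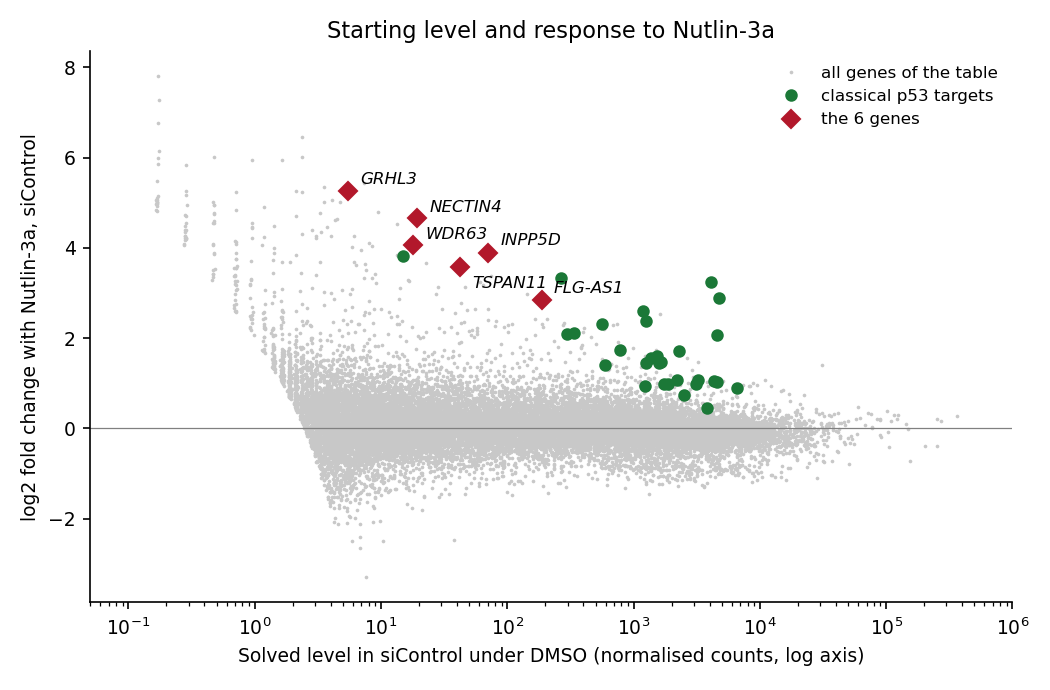
log2 fold change with Nutlin-3a in siControl against the solved level under DMSO in normalised counts (log axis), for all genes of the table (grey), 29 classical p53 targets (green) and the 6 genes (red). The 6 genes lie at DMSO levels of 5.44 to 187 with log2 fold changes of 2.85 to 5.27. The classical targets have a median level of 1638 and a median change of 1.47.

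The depth behind the DMSO levels set how well the folds were known. With counting error computed from the solved levels, 91.8% of the squared SE of GRHL3 in siControl came from counting, most of it from the 5.44 counts per library under DMSO. For NECTIN4 that share was 85.3% and for WDR63 79.8%, and for FLG-AS1, with its higher DMSO level, it was 47.4%. The spread between libraries that remained was between 5.82% and 9.20% of the level for the 6 genes in siControl. It was computed as 1 value for both treatments. The comparison of siRFX7 with siControl under DMSO implied 8.79% to 44.5%, the highest for GRHL3. The spread under DMSO may therefore exceed the siControl figures, and the fold intervals may then be too narrow. These figures take the size factors of the libraries as 1.

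Whether the siRNA against RFX7 changed the members was tested in the comparisons of siRFX7 with siControl, which the choice of the members did not use, although they share libraries with the Nutlin-3a comparisons. Under Nutlin-3a, TSPAN11, NECTIN4 and INPP5D were lower with siRFX7. TSPAN11 fell most in the authors' deposited table, by 0.45 ± 0.09 (SE) on the log2 scale, to 73.1% of its siControl level (DESeq2 adjusted p 2.48e-06). NECTIN4 was at -0.28 ± 0.08, or 82.6% (DESeq2 adjusted p 0.00464), and INPP5D at -0.23 ± 0.07, or 85.0% (DESeq2 adjusted p 0.00205), in the authors' deposited table. The other 3 genes did not pass the test. GRHL3 was at 0.18 ± 0.12 (DESeq2 adjusted p 0.249), WDR63 at -0.11 ± 0.10 (adjusted p 0.466) and FLG-AS1 at 0.09 ± 0.08 (adjusted p 0.377) in the authors' deposited table. Their 95% intervals, -0.05 to 0.40 for GRHL3, -0.31 to 0.09 for WDR63 and -0.05 to 0.24 for FLG-AS1, leave out changes of 0.5 in either direction. Beside these 3 of 6 members, the authors' deposited table called 17.2% of all genes higher and 15.4% lower, or 32.6% in either direction. The 3 calls rest on small changes: none reached a size of 0.5, and with Bonferroni adjustment TSPAN11 alone was called.

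Under DMSO, FLG-AS1 was the 1 member called, lower with siRFX7 at -0.41 ± 0.12 (SE; DESeq2 adjusted p 0.00387) in the authors' deposited table, or 75.4% of its siControl level. With Bonferroni adjustment over the table this call was lost, and it was below a size of 0.5. The background in the authors' deposited table was 19.9% of genes higher and 17.5% lower, or 37.4% in either direction, and 1 of 6 lower is close to it. INPP5D at -0.42 ± 0.21 (DESeq2 adjusted p 0.104) and TSPAN11 at -0.42 ± 0.26 (adjusted p 0.204) had values of the same size in the authors' deposited table with wider errors. NECTIN4 was at -0.25 ± 0.37 (DESeq2 adjusted p 0.644) and WDR63 at -0.09 ± 0.37 (adjusted p 0.882) in the authors' deposited table. GRHL3 had the highest value of the 6 in the authors' deposited table, 1.29 ± 0.60 (DESeq2 adjusted p 0.0761), on solved levels of 5.48 and 13.4 normalised counts. With SEs of this size, a change as large as that of TSPAN11 under Nutlin-3a was not detectable for GRHL3, NECTIN4 or WDR63. Their 95% intervals ran from 0.12 to 2.45, from -0.98 to 0.48 and from -0.83 to 0.64. INPP5D and TSPAN11 had values near that size that were not called, with intervals of -0.84 to -0.01 and -0.92 to 0.09. No absence of a decrease is read for them.

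**Figure D4:**
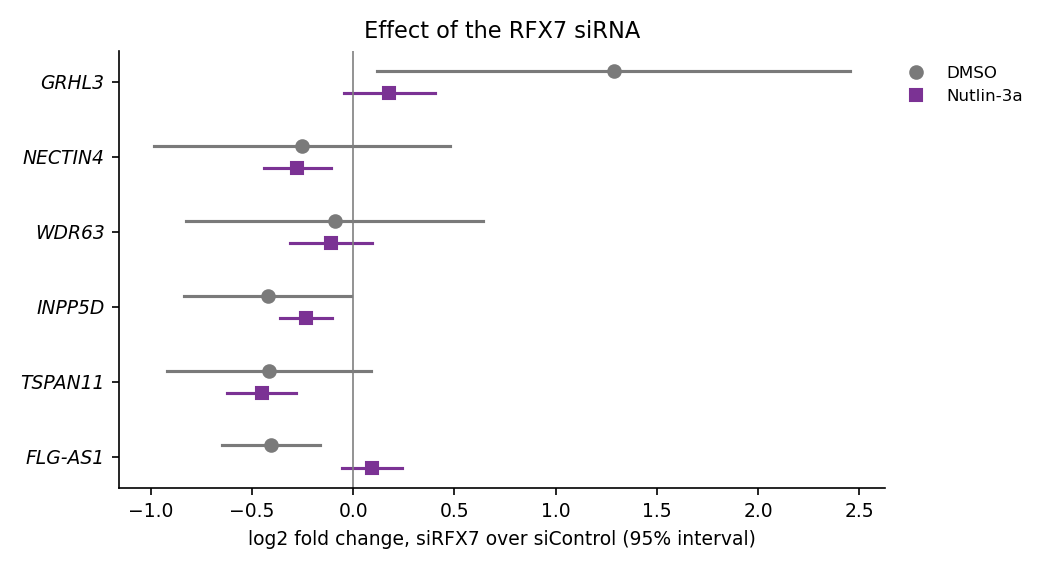
log2 fold change of siRFX7 over siControl for each gene under DMSO (grey circles) and Nutlin-3a (purple squares), with 95% intervals from the deposited SEs. The intervals are wide under DMSO, where levels are low, and narrow under Nutlin-3a, where TSPAN11 (-0.45), NECTIN4 (-0.28) and INPP5D (-0.23) lie below 0.

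The difference between the Nutlin-3a responses, siRFX7 minus siControl, is made of the values that chose the members and is given with no test. It was close to 0 for WDR63 (-0.01 ± 0.31, 95% interval -0.61 to 0.59), NECTIN4 (-0.02 ± 0.29, -0.59 to 0.55) and TSPAN11 (-0.02 ± 0.23, -0.47 to 0.42). INPP5D had 0.19 ± 0.17, with an interval of -0.15 to 0.53. FLG-AS1 had 0.50 ± 0.13 (0.24 to 0.76), with a lower DMSO level and a similar Nutlin-3a level in siRFX7. GRHL3 had -1.07 ± 0.42 (-1.90 to -0.24), with a DMSO level of 12.9 against 5.44 normalised counts. The median over the 6 was -0.01, and over all 21339 genes in both tables it was -0.000553. A normal test of that difference called 0.937% of all genes, 0.764% lower and 0.173% higher in siRFX7, and was not read for the members. No difference between the responses, and no equality of them, is read from these values.

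The closest relatives of the members did not show rises of this size. GRHL1 had a log2 fold change with Nutlin-3a of 0.01 ± 0.17 (SE; DESeq2 adjusted p 0.967) by the authors' deposited siControl table, and GRHL2 had no row in any table. NECTIN1, NECTIN2 and NECTIN3, the other nectin adhesion molecules, were all lower in the authors' deposited table for siControl, at -0.19 ± 0.06, -0.19 ± 0.04 and -0.33 ± 0.06 (DESeq2 adjusted p 0.00253, 6.41e-05 and 1.29e-07). INPPL1, the SHIP2 relative of INPP5D, was at 0.09 ± 0.04 (DESeq2 adjusted p 0.105), and WDR78, another dynein intermediate chain, at -0.03 ± 0.41 (adjusted p 0.969), in the authors' deposited table for siControl.

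Among tetraspanins apart from TSPAN11, 8 of 25 rose and 2 fell in the authors' deposited table for siControl, with a median of 0.11, where 18.3% of all genes rose with a median of 0.01. TSPAN1, at 1.72 ± 0.19, CD82, a metastasis suppressor, at 1.54 ± 0.06, and TSPAN10, at 1.09 ± 0.12, rose most of those whose base mean was 20 or more, by the authors' deposited table. CD81 was at -0.12 ± 0.04 (DESeq2 adjusted p 0.00897) in the authors' deposited table. In the phosphoinositide list 8 of 24 genes rose and 2 fell in the authors' deposited table for siControl. PIK3IP1, an inhibitor of PI3K, was highest at 2.37 ± 0.14, followed by PIK3CD at 0.47 ± 0.04 and INPP5B at 0.43 ± 0.05 in the authors' deposited table.

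The list of axonemal dyneins and the Arp2/3 complex, which WDR63 belongs to by its 2 known roles, had 7 genes higher and 4 lower of 23 in the authors' deposited table for siControl. For these counts and those of the next lists, the shares over all genes were 18.3% higher and 19.6% lower. DNAH5, an outer arm dynein heavy chain, was at 0.88 ± 0.17, DNAH10 at 0.50 ± 0.16 and DNAL4 at 0.46 ± 0.10 in the authors' deposited table. WASF2, an activator of Arp2/3, was at -0.19 ± 0.05 in that authors' deposited table. Nectins and their partners had 3 genes higher and 5 lower of 15 there, with CADM1 highest at 0.43 ± 0.05 in the authors' deposited table. Of the grainyhead, desmosome and epithelial junction genes 2 of 17 rose and 4 fell. Those 2 were JUP, or plakoglobin, at 0.70 ± 0.07 and DSG2, a desmosomal cadherin, at 0.21 ± 0.04 in the authors' deposited table. Those that fell were PKP2, a desmosomal plaque protein, at -0.24 ± 0.05, UBP1, a grainyhead family factor, at -0.24 ± 0.04, and the tight junction genes OCLN at -0.21 ± 0.08 and TJP1 at -0.13 ± 0.04 in the authors' deposited table. OCLN and TJP1 were named after their values were seen.

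With siRFX7 the 3 other nectins kept no common direction. NECTIN1 was higher in the authors' deposited tables, at 0.29 ± 0.06 (SE) with DMSO and 0.24 ± 0.06 with Nutlin-3a (DESeq2 adjusted p 3.58e-06 and 0.000279). NECTIN2 was also higher there, at 0.20 ± 0.04 and 0.19 ± 0.04 (DESeq2 adjusted p 5.02e-06 and 6.07e-05, authors' deposited tables). NECTIN3, like NECTIN4 under Nutlin-3a, was lower, at -0.25 ± 0.06 and -0.25 ± 0.06 (DESeq2 adjusted p 5.33e-05 and 0.000523, the authors' deposited tables). Among the nectins and their partners as a whole, the authors' deposited table for Nutlin-3a had 8 of 14 higher and 2 lower, against 17.2% and 15.4% of all genes. In the phosphoinositide list, the same authors' deposited table had 11 of 23 higher and 3 lower, and PIK3IP1 had the lowest value, -2.50 (DESeq2 adjusted p 1.53e-58). Tetraspanins had 3 higher and 5 lower of 23 there, with TSPAN1 at -0.42 (DESeq2 adjusted p 0.0456) and CD82 at -0.16 (adjusted p 0.0136) in the authors' deposited table. Dyneins and Arp2/3 genes had 4 higher and 3 lower of 22, junction genes 5 higher and 1 lower of 17, and epidermal differentiation complex genes 0 higher and 3 lower of 13, by the authors' deposited table for Nutlin-3a. Of the 29 classical p53 targets, 7 were higher and 15 lower there, and under DMSO 5 higher and 14 lower, with medians of -0.14 in both of the authors' deposited tables. Under DMSO the shares over all genes were 19.9% higher and 17.5% lower.

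In the epidermal differentiation complex, which holds FLG-AS1, more of the listed genes rose than fell. Of 38 other genes of that list the authors' deposited table for siControl held 18. Of these, 11 rose and none fell, with a median of 0.54, where 18.3% of all genes rose. Besides FLG, IVL, LCE1B and LCE1C, those that rose were S100 genes. Among them S100A2, S100A4, S100A6, S100A13 and S100A16 lie 1.37 to 1.45 Mb from the FLG-AS1 start. TCHH, 0.06 Mb below that start, was at -0.40 ± 0.24 (DESeq2 adjusted p 0.200) in the authors' deposited table. In siRFX7 cells 8 of 14 rose and none fell, with a median of 0.58 by the authors' deposited table, where 18.7% of all genes rose. By the naming rule, IVL, or involucrin, a cornified envelope protein, was at 1.94 ± 0.28 (SE), S100A10 at 0.72 ± 0.05 and S100A11 at 0.70 ± 0.04 in the authors' deposited table for siControl. LCE1C at 4.95 ± 1.10 and LCE1B at 4.61 ± 1.12, late cornified envelope genes, were the highest of the list in the authors' deposited table, with base means of 7.54 and 6.03, and they were named after their values were seen. The list does not hold every gene of the complex: LCE1E, outside it, was at 4.84 on a solved DMSO level of 0.711 normalised counts, from the authors' deposited table. FLG, which FLG-AS1 overlaps on the opposite strand, was at 1.21 ± 0.44 (DESeq2 adjusted p 0.0187) on a base mean of 15.4 in the authors' deposited table for siControl. HRNR, FLG2 and CRNN, which FLG-AS1 also overlaps, had no row. On the strand of FLG-AS1 and within its span, AL589986.2 was at 2.07 ± 0.35 in siControl and 2.63 ± 0.41 in siRFX7 (DESeq2 adjusted p 1.9e-08 and 1.17e-09) in the authors' deposited tables. HMGN3P1, a pseudogene within the span, was at -0.21 ± 0.10 in siControl and -0.42 ± 0.16 in siRFX7 (DESeq2 adjusted p 0.106 and 0.0261, the authors' deposited tables). With siRFX7 it was lower, at -0.58 ± 0.12 under DMSO and -0.79 ± 0.14 under Nutlin-3a (DESeq2 adjusted p 6.43e-06 and 4.56e-07, the authors' deposited tables). In siRFX7 FLG was at 1.01 ± 0.52 (DESeq2 adjusted p 0.117) in the authors' deposited table. The library kit is stranded but the strand setting of the counting is not given in the sources used here, so reads of FLG and FLG-AS1, and of other overlapping pairs, cannot be told apart with certainty.

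**Figure D5:**
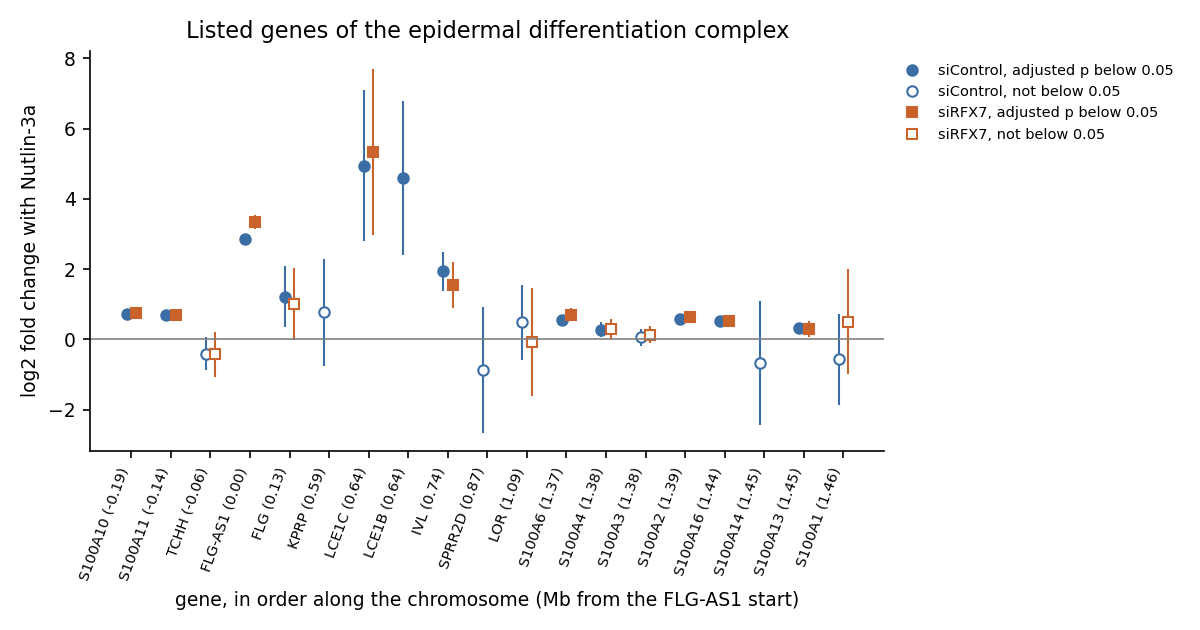
log2 fold change with Nutlin-3a of the listed epidermal differentiation complex genes with a row, in order along chromosome 1 with the distance from the FLG-AS1 start in Mb, in siControl (blue circles) and siRFX7 (orange squares); bars are 95% intervals and filled symbols have an adjusted p under 0.05. FLG-AS1 stands at 2.85 and 3.35, LCE1C is higher with wide intervals, and S100A10 and S100A11 on its other side stand between 0.70 and 0.75.

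Genes beside the other members were also read by position. STPG1, which overlaps GRHL3 on the opposite strand, was at 0.82 ± 0.06 (SE), and NIPAL3, the next gene above, 51.3 kb away, at 1.04 ± 0.05 in the authors' deposited table for siControl. ARHGAP30 lies 1.02 kb below NECTIN4 in position, on the same minus strand, so it begins downstream of the end of NECTIN4. It had 3.02 ± 0.48 on a base mean of 16.02, and 2.89 ± 0.74 in siRFX7, by the authors' deposited tables. By contrast MCOLN2, 2.03 kb below WDR63, was at -0.07 ± 0.10 (DESeq2 adjusted p 0.649), and ATG16L1, 2.15 kb above INPP5D, at -0.003 ± 0.06 (adjusted p 0.979), in the authors' deposited table for siControl. Whether reads from NECTIN4 or GRHL3 enter the counts of their neighbours was not tested.

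Markers of the tissues in which these genes are best known were read alongside. Epithelial and keratinocyte markers had 10 of 14 genes, of which 2 rose and 1 fell, with a median of 0.01 in the authors' deposited table for siControl. In siControl, 18.3% of all genes were higher with Nutlin-3a and 19.6% lower. KRT14 was at 0.62 ± 0.19 and KRT8 at 0.11 ± 0.04, and KLF5 at -0.16 ± 0.05, in the authors' deposited table. The summed level of the 10 went from 39749 to 41800.0 normalised counts in siControl, and from 16598.3 to 16816.5 without KRT8, the highest of them. KRT5, KRT1, GRHL2 and OVOL1 had no row. Of 12 blood cell markers, the authors' deposited table for siControl held 8, 2 of them called higher (ITGAM, 1.03 ± 0.14, and CORO1A, 0.48 ± 0.15) and 1 lower (LCP1, -0.19 ± 0.04). The summed level of the 8 fell from 6353 to 5717 normalised counts in siControl. Without LCP1, the highest of them, it went from 228 to 353. PTPRC, SPI1 and CD14 had base means of 5.21, 4.16 and 3.39, and CD3E, LYZ and HBB were among those with no row. Of 12 multiciliated cell markers 6 were in the authors' deposited table and 1, DNAH5, rose, with a median of 0.61 over the 6 against 0.01 over all genes. That median lies between DNAI1 and RSPH4A, with base means of 23.9 and 20.2 and neither called. In siRFX7 the median was 0.21 in the authors' deposited table, with 2 called higher and 1, MCIDAS, lower. Over all genes 18.7% were higher there and 20.3% lower. The summed level of the 6 markers went from 440 to 494 normalised counts in siControl, and from 167 to 261 without MCIDAS, the highest of them. FOXJ1, a regulator of motile cilia, and DNAH9, DNAI2, CCDC39, TEKT1 and SPAG6 had no row. With siRFX7, 3 epithelial markers were called higher and none lower in each of the authors' deposited tables, of 8 under DMSO and 9 under Nutlin-3a, where 19.9% and 17.2% of all genes were higher. Among them were CDH1, or E-cadherin, at 0.85 ± 0.13 and 1.10 ± 0.12 (DESeq2 adjusted p 1.26e-09 and 1.21e-18), and EPCAM at 0.54 ± 0.11 and 0.41 ± 0.11 (DESeq2 adjusted p 4.07e-06 and 0.00121), both chosen after their values were seen in the authors' deposited tables. The part of these markers in the values of the 6 genes was not tested.

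The genes most like each member were sought by the Euclidean distance over the 4 deposited log2 fold changes, among 13523 genes present in all tables and with a siControl base mean of 100 or more. For GRHL3 and NECTIN4 the nearest gene was another member, and WDR63 and INPP5D, at a distance of 0.400, were among the 3 nearest of one another. TFEC, a MiT family transcription factor, was nearest to INPP5D (0.225) and to WDR63 (0.280). SLC52A1, a riboflavin transporter, was nearest to TSPAN11 (0.175), with log2 fold changes of 3.66 and 3.70 with Nutlin-3a and of -0.43 and -0.38 with siRFX7 under DMSO and Nutlin-3a in the authors' deposited tables. GRIN2C was nearest to FLG-AS1, at 0.668. GRHL3 had no close neighbour, as its nearest gene, NECTIN4, was at 1.77. They lay furthest apart with siRFX7 under DMSO, at 1.29 ± 0.60 for GRHL3 and -0.25 ± 0.37 for NECTIN4 in the authors' deposited values. Neither was called, and both levels are low there, so no pattern particular to GRHL3 is read from this distance. The 4 comparisons share libraries, and 2 of them are the Nutlin-3a comparisons whose large changes chose the members. Nearness between members follows in part from that choice, and a short distance describes these values only.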

How the data were processed

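Poly(A) RNA of 16 libraries in 4 groups of 4 was sequenced. The submitters' processing notes name featureCounts 1.6.5, DESeq2 1.20.0 and hg38. The aligner, the annotation and the strand setting are not given in the sources used here. The 4 tables hold the authors' comparisons as deposited: the base mean (a signal, the mean normalised read count over both groups), the log2 fold change with its SE, the Wald score, and the p-value with its Benjamini-Hochberg adjusted form. Fold change over SE gave that score to within 1.85e-13, and the deposited p-value and adjusted p were recomputed from the deposited score to within 2.83e-15 and 1.47e-15. The direction of each table was read from RFX7, CDKN1A and MDM2.

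The authors' fold changes are used unchanged. Group levels were solved as 2 × base mean / (1 + fold change) for the reference group of a table. The 2 comparisons of siRFX7 with siControl were scaled to the siControl Nutlin-3a comparison by the median ratio of the group they share. Their factors were 1.11 under DMSO and 1.18 under Nutlin-3a. The siRFX7 Nutlin-3a comparison shares no group with the siControl one. It was scaled through siRFX7 with DMSO, the group it shares with the DMSO comparison of siRFX7 with siControl, to a factor of 1.32. The deposited adjusted p counted as a call when below 0.05. Intervals are 95% normal intervals. The difference of responses was a subtraction, with SEs added in quadrature, since those tables share no library. Its normal test, adjusted over 21339 genes, was read only for genes that are not members. The level, difference and dispersion steps were tested on simulated data.

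Gene lists hold 7 families or pathways and 4 cell types, and list counts leave out the members. Named genes were the members, 9 close relatives, the 3 highest and 2 lowest called genes of each list (base mean of at least 20), the 3 nearest in pattern, neighbours by position and the top 10 by fold. The members and lists were chosen with earlier results of these data known. GENCODE 29 held 99.9% of gene identifiers. Python 3.11.15, pandas 2.3.3 and scipy 1.17.1 were used. Some marker and check genes are not reported here.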

Additional observations from a re-analysis of the deposited data

Results flagged for a closer look

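Of 169 list genes that are not members, 10 had a different Nutlin-3a response in siRFX7 cells by the normal test of the difference, at a Benjamini-Hochberg adjusted p under 0.05 over 21339 genes. That test called 0.937% of all genes. In the phosphoinositide list, to which INPP5D belongs, PIK3IP1 differed by -2.17 ± 0.25 (adjusted p 1.13e-14) and PIK3R3, a regulatory subunit of PI3K, by -0.92 ± 0.09 (adjusted p 2.05e-19). Among tetraspanins, CD82 differed by -0.44 ± 0.09 (adjusted p 0.000319) and TSPAN5 by -0.27 ± 0.06 (adjusted p 0.000909). CLDN1, a tight junction protein, differed by -0.50 ± 0.09 (adjusted p 1.82e-05), and CDH2, or N-cadherin, by -0.24 ± 0.05 (adjusted p 0.00301). Of the classical p53 targets, TP53INP1 (-0.46), SESN2 (-0.32) and CDKN1A (-0.26) had lower responses in siRFX7 and RRM2B (0.26) a higher one, with adjusted p of 0.00143, 0.00244, 0.000305 and 0.0123. Each value is the log2 fold change in siRFX7 less that in siControl. A lower response is thus not always a lower level under Nutlin-3a. With siRFX7 over siControl, CDKN1A was at 0.60 under DMSO and 0.33 under Nutlin-3a, by the authors' deposited values. In the same order SESN2 was at 0.48 and 0.17, CLDN1 at 1.30 and 0.80, RRM2B at -0.74 and -0.48, and TP53INP1 at -0.01 and -0.48.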

How the results depend on the processing

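No paired analysis was possible because the deposited tables hold no values of single libraries, and leaving out a library could not be run for the same reason. With Bonferroni adjustment the number of members called with siRFX7 was 0 under DMSO and 1 (TSPAN11) under Nutlin-3a, against 1 and 3 with the Benjamini-Hochberg adjustment. Requiring a log2 size of at least 0.5 left 0 under DMSO and 0 under Nutlin-3a. An adjusted p under 0.01, adjustment restricted to base means of 100 or more and centring on the median of all genes kept the same members called; under DMSO only FLG-AS1 had that base mean. Centring moved the median response to 4.01 in siControl and 4.09 in siRFX7, from 3.98 and 4.07. Levels solved from the siRFX7 tables instead had a median of 199, against 198, and a base mean of 20 or more left 90 of 94 calls over the lists. Ranking among all genes moved the lowest-ranked member from 24 to 177 in siControl and from 5 to 54 in siRFX7. Depth under DMSO limits GRHL3, WDR63 and NECTIN4 most.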
